A study of Mus musculus with 10 samples.

Results

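The libraries compared here were whole skin libraries that differed in how many of their reads came from hair shaft and inner root sheath genes. All 10 libraries of the series entered the comparison: 5 hair-rich libraries, with more than 1% of raw reads on those genes, and 5 hair-poor libraries, with less than 0.3%. The hair-rich libraries were wild type (WT) 1, 2, 4 and 5 and NPYtet 5, and the hair-poor libraries were WT 3 and NPYtet 1 to 4. The series measured polyadenylated RNA from the skin of 22-week-old mice, 5 of them homozygous for the Npy allele of the strain B6;129S4-Npytm2Rpa/J (NPYtet) and 5 their wild-type siblings (WT). No treatment is named for either genotype. Genotype was therefore unbalanced, at 4 WT and 1 NPYtet hair-rich libraries against 1 WT and 4 NPYtet hair-poor libraries. Labelled sex was unbalanced too, at 1 female and 4 males against 4 females and 1 male.

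Hair follicles cycle through growth (anagen), regression (catagen) and rest (telogen). In growth, matrix cells at the base of the follicle divide under hedgehog, Wnt, BMP and FGF signals and differentiate into the hair shaft and the inner root sheath that moulds it, while melanocytes pass pigment to the shaft. The outer root sheath and its companion layer surround these, and the bulge holds the follicle's stem cells.

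The share of reads on the defining list (hair keratins, inner root sheath keratins, keratin-associated proteins and their partners, 89 genes) was 4.63%, 2.77%, 3.17%, 1.115% and 1.96% in WT 1, WT 2, WT 4, WT 5 and NPYtet 5. In WT 3 and NPYtet 1 to 4 it was 0.0454%, 0.009%, 0.279%, 0.0335% and 0.0155%. The library just above the upper bound was WT 5 and the library just below the lower bound was NPYtet 2. The member genes of the defining list were assembled for this comparison, and the place of WT 5 depends on them: over its 32 genes that are not keratin-associated protein genes WT 5 had 0.935% of reads, under the 1% bound, and the other 9 libraries stayed in their groups. The groups were chosen by these measured shares, so differences between the groups, in any gene, are described here without a test. Each is a log2 difference (hair-rich minus hair-poor) with its standard error from a model that also held genotype, and a gene was called when the 5 and 5 libraries did not overlap in CPM (reads scaled to a common library size) and the difference was at least 1. The single hair-rich NPYtet library means that every within-NPYtet difference rests on NPYtet 5. Likewise, every within-WT difference rests on WT 3, the single hair-poor WT library.

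Libraries held between 23209405 and 53357695 reads on genes. NPYtet 5 and WT 2, both hair-rich, stood apart: 9.26% of NPYtet 5 reads were mitochondrial against 1.86% to 3.03% elsewhere, the ribosomal RNA locus took 4.7% and 1.82% of reads against 0.243% to 0.443% elsewhere, and 19953 and 21144 genes had a read against 24710 or more elsewhere. Long genes were also low in them: over the 6006 longest genes (median 7493 bp of exon) the median centred log2 CPM was -0.681 in WT 2 and -0.315 in NPYtet 5, against -0.08 to 0.236 in the other 8. The library labelled female NPYtet 1 carried 1513 reads of the Y-linked Ddx3y and 2 of Xist, against its label. Counts are therefore also given without WT 2 and NPYtet 5, and without NPYtet 1.

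The hair-rich libraries did not share 5 markers of a growing follicle: Shh, Ptch1, Lef1, Tyrp1 and Mki67. Shh, the hedgehog ligand of the hair matrix, was at 14.5 and 13.1 CPM in WT 1 and WT 4 but at 1.22, 0.653 and 1.19 CPM in WT 2, WT 5 and NPYtet 5. In the hair-poor libraries Shh was at 1.08 CPM in WT 3 and at 0.0738, 1.02, 0.0922 and 0.16 CPM in NPYtet 1 to 4, so that WT 5 lay within the hair-poor range. Ptch1, the hedgehog receptor and target, followed the same division: 88.7 and 60.8 CPM in WT 1 and WT 4, 13.7 to 17.8 CPM in the other hair-rich libraries, and 22.3 to 28.3 CPM in the hair-poor libraries. Lef1, the Wnt-responsive factor of matrix and precortex and itself on the defining list, was at 47.2 and 53.2 CPM in WT 1 and WT 4 and at 7.98 CPM or less in all other libraries. Tyrp1, a melanosome enzyme, was at 82.7 and 55.7 CPM in WT 1 and WT 4 and at 7.66 CPM or less elsewhere. Mki67, expressed in dividing cells, was at 153 CPM in WT 1 but at 4.42 CPM in WT 5, against 2.07 to 39.8 CPM in the hair-poor libraries.

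**Figure D1:**
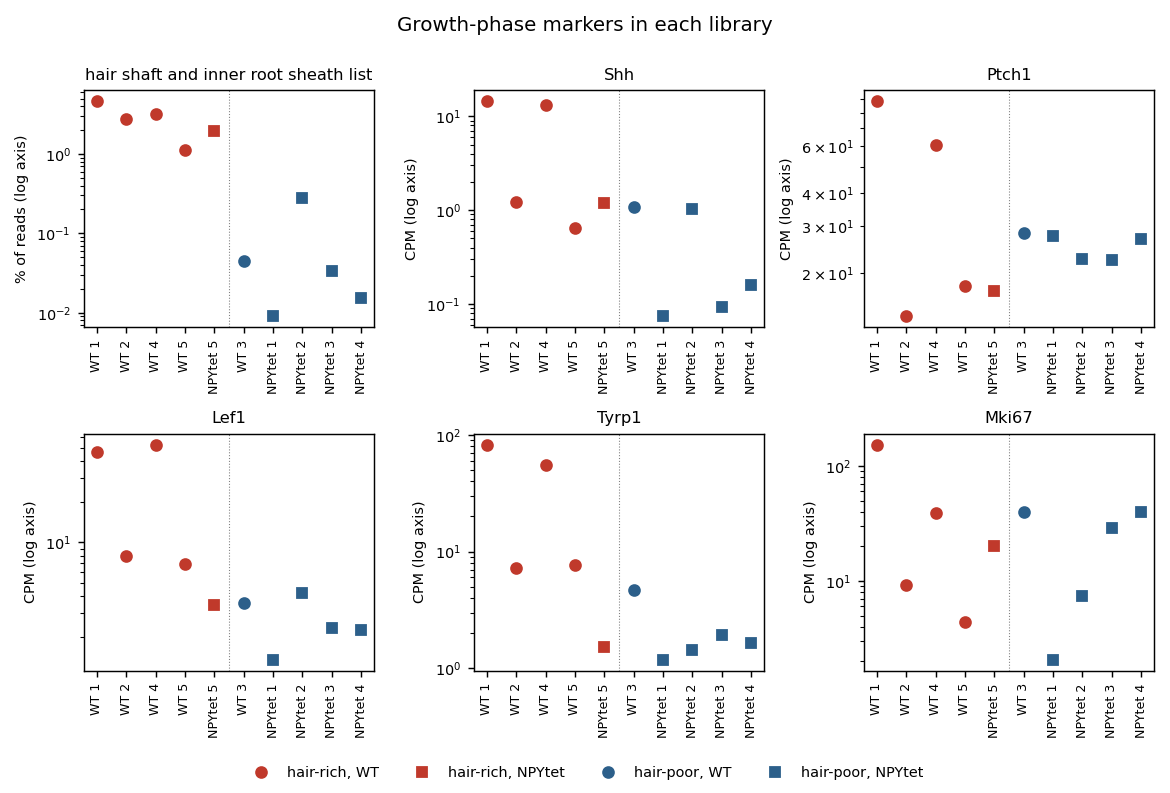
Share of reads on the hair shaft and inner root sheath list (percent) and CPM of 5 growth-phase markers in each of the 10 libraries, both on log axes; circles are WT, squares NPYtet, red hair-rich and blue hair-poor. The hair-rich libraries are above 1% of reads by the rule, while Shh, Ptch1, Lef1 and Tyrp1 are high in WT 1 and WT 4 and not in WT 2, WT 5 and NPYtet 5.

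As lists, 0 of 14 hedgehog genes, 0 of 30 mitotic genes, 0 of 30 genes of S phase and DNA replication, 0 of 18 pigment genes and 0 of 24 dermal papilla and sheath genes were free of overlap between the groups in either direction, beside 491 higher (2.72%) and 295 lower (1.63%) of 18060 genes tested. Their median log2 differences were 0.318, -0.05, 0.296, 0.244 and -0.16, beside -0.133 over all genes tested. Without WT 2 and NPYtet 5, which sets WT 1, WT 4 and WT 5 against WT 3, the medians of the same 5 lists were 0.724, 0.735, 1.01, 1.17 and 0.06. The label of growing skin was thus met by WT 1 and WT 4 on these markers, and not by WT 2, WT 5 and NPYtet 5. Follicle genes such as Foxe1, Dlx3 and Krt75, described below, were higher in all 5 hair-rich libraries. They were picked for having no overlap, so they are no separate evidence for the label. In whole skin, fewer cells of a type and less RNA per cell cannot be told apart.

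Among 18060 genes tested, 389 (2.15%) were called higher and 158 (0.875%) lower in the hair-rich libraries. Of the 389, 76 were among the 86 tested genes of the defining list and 313 were outside it. The 10 defining genes not called included Lef1 (1.76 ± 0.76 SE) and Tgm3 (-0.05 ± 0.64 SE), a transglutaminase of hair and epidermis; the other 8 were keratin-associated protein genes whose groups overlapped. Without WT 2 and NPYtet 5, the median difference of the 313 other genes was 2.12, against 2.27 over all 10 libraries. For the 158 lower genes it was -0.92, against -1.43. All 313 and all 158 kept the sign of their difference, which was nearly fixed in advance because they were picked for no overlap. Scaled by library totals alone, which moved the median of all genes to -0.643, the calls were 264 higher and 380 lower. With labelled sex in the model, the calls were 371 higher and 110 lower. With a library left out, fewer values have to stay apart for a call, so the counts tend to rise. The counts moved most without NPYtet 2, the hair-poor library nearest the bound, at 675 higher and 736 lower. Without WT 1 there were 541 and 385, without WT 5 479 and 262, and without the sex-discordant NPYtet 1 451 and 227.

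**Figure D2:**
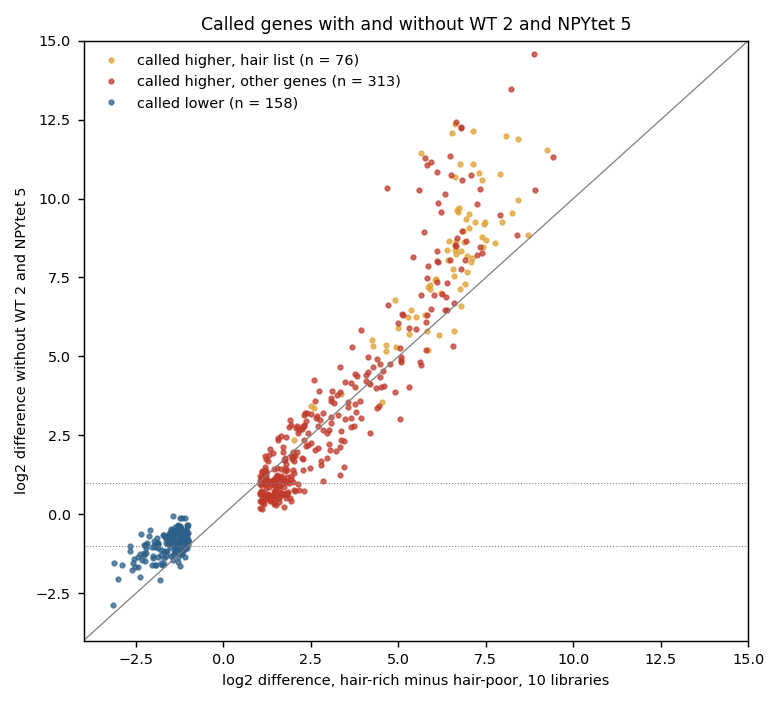
Log2 difference of each of the 389 higher and 158 lower called genes over all 10 libraries (x axis) against the same difference without WT 2 and NPYtet 5 (y axis); the diagonal marks equal values and the dotted lines 1 and -1. Hair list genes (yellow) and most other higher genes (red) lie beyond 1 on both axes, while most lower genes (blue) lie between -1 and 0 without those libraries.

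Of the 313, 22 were neighbours of the keratin-associated protein genes. These genes, which encode the cysteine-rich and glycine-rich matrix proteins of the hair shaft, lie in clusters, and 29 tested genes outside the list lay within 3 of them (mm10 coordinates). At chr11:99550130-99993994, 13 of 14 such genes were called higher, at chr16:88610705-89571183 6 of 9, and at chr7:142174535-142304594 3 of 6. The highest difference among the called genes belonged to one of them, Gm10061 (chr16:89151086-89151550, named here after its value was seen). Gm10061 was at 7.72, 35.9, 2.17, 13 and 247 CPM in WT 1, WT 2, WT 4, WT 5 and NPYtet 5 and between 0 and 1.18 CPM in the hair-poor libraries, a log2 difference of 9.41 ± 1.62. Reads that match several near-identical members of this family may be uncounted or misplaced, so its single-gene values are uncertain. Outside the list and the clusters, 291 genes were called higher, of which 260 had a mean of at least 1 CPM. Of the 260, 221 had a full gene symbol. Only regions with at least 5 named keratin-associated protein genes counted as clusters. Unnamed genes beside smaller groups of that family can therefore remain among the 291 and in the promoter counts below.

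Prr9, a proline-rich gene of the epidermal differentiation complex, was the most abundant of the 10 highest genes outside the clusters. Prr9 stood at 1594, 1074, 1110, 625 and 3183 CPM in WT 1, WT 2, WT 4, WT 5 and NPYtet 5. It stood at 10.9 CPM in WT 3 and at 9.81, 103, 21.5 and 7.42 CPM in NPYtet 1 to 4, a log2 difference of 6.58 ± 0.77. Gprc5d, an orphan receptor of hard keratinised tissue, was at 58 to 248 CPM in the hair-rich libraries and at 0 to 17.9 CPM in the others (6.91 ± 1.75). Padi1, which converts protein arginine to citrulline, was at 32.1 to 189 CPM against 0.0246 to 8.05 CPM (6.33 ± 1.58), and Vsig8, an immunoglobulin-domain protein of the hair shaft, at 42.4 to 308 CPM against 0.435 to 16.5 CPM (6.38 ± 1.33). In each of these 4 genes NPYtet 2 was the highest hair-poor library, as it was for the share of reads on the defining list.

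Several of the highest genes have their known roles outside skin. Cryba4, a lens crystallin, was at 16.7 to 145 CPM against 0.229 to 2.96 CPM (6.56 ± 0.86). Sct, which encodes the gut hormone secretin, was at 1.81 to 7.51 CPM against 0 to 0.414 CPM (6.09 ± 1.06), and Calhm4, of the calcium homeostasis modulator channel family, at 10.8 to 111 CPM against 0 to 6.14 CPM (6.02 ± 1.62). The potassium channel gene Kcnk16 (6.37 ± 1.05), the zinc transporter gene Slc30a3 (7.33 ± 1.19) and the protease inhibitor gene Spink12 (8.38 ± 1.38) completed the 10. Spink12 and Slc30a3 were low, at 0.414 to 21.2 CPM and 0.612 to 6.95 CPM in the hair-rich libraries.

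Crnn (cornulin) and Tchhl1, S100 fused-type relatives of trichohyalin, were the 2 called members of the 28 tested cornified envelope genes. Crnn was at 315, 28.1, 138, 22.7 and 77.2 CPM in WT 1, WT 2, WT 4, WT 5 and NPYtet 5 and between 0 and 4.61 CPM in the hair-poor libraries (5.93 ± 1.40). Tchhl1 was at 533, 20.9, 152, 14.4 and 107 CPM against 1.28 to 8.37 CPM (5.64 ± 1.20). Both genes were highest in WT 1 and WT 4. The other 26 envelope genes, among them loricrin and the late cornified envelope genes, overlapped between the groups.

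Promoter sequence did not enter the grouping, and the letters TATAAA, those of a TATA box, were counted in it. Of 27 called higher genes named here that have a RefSeq promoter entry and are outside the defining list, 5 held TATAAA on either strand of the 50 bases before the start. Among the 10 highest, these were 3 of the 9 with an entry, and Cryba4, Gprc5d, Kcnk16, Padi1, Slc30a3 and Vsig8 did not hold it, nor did Tchhl1. The 100 bases before the RefSeq start (GRCm38.p6, read 5′ to 3′ on the gene's strand) are shown for those 5, chosen because they hold the letters, which are in capitals. The windows are chr3:92123948-92124047 (minus strand) for Prr9, chr10:34044314-34044413 (minus) for Calhm4, chr7:141279134-141279233 (minus) for Sct, chr3:93144689-93144788 (plus) for Crnn and chr7:98835012-98835111 (plus) for Wnt11, each directly upstream of the RefSeq start of exon 1.
Prr9: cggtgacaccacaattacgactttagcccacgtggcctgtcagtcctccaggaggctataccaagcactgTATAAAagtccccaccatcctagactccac
Calhm4: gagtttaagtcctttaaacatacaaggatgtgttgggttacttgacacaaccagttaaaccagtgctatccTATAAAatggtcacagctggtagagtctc
Sct: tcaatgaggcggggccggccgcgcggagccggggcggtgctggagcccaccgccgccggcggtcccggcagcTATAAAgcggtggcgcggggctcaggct
Crnn: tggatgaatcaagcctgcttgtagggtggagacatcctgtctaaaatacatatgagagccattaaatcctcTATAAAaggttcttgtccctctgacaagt
Wnt11: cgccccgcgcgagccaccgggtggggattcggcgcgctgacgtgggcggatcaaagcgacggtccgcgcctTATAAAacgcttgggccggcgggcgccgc
In these 5 the letters begin 28 to 30 bases before the start. Wnt11 has 2 RefSeq starts, and the window shown is of a start that holds the letters. A gene with more than 1 start was counted when any of its starts held the letters. Over whole sets, counted the same way, TATAAA was found in 41 of 62 called genes of the defining list (66.1%), in 23 of 203 called higher genes outside the list and clusters (11.3%), in 0 of 111 called lower genes and in 445 of all 12674 tested genes with an entry (3.51%). For comparison, GGGCGG, the letters of a GC box, was found on either strand of the 250 bases before the start in 6.45%, 56.7%, 42.3% and 58.4% of the same sets. Over all 27025 genes of the RefSeq table the shares were 4.17% for TATAAA and 35.4% for GGGCGG. These are matches of letters and not sites shown to be used.

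Among 24 tested ectodysplasin pathway genes and regulators of the hair matrix, 5 were called higher and 0 lower, and the median log2 difference was 0.505. For this list and those that follow, the shares called over all tested genes were 2.15% higher and 0.875% lower. All 5 were transcription factors. Foxe1, a forkhead factor of the hair follicle, was at 28.6, 38.2, 16.1, 8.93 and 23 CPM in WT 1, WT 2, WT 4, WT 5 and NPYtet 5, and at 1.67 CPM in WT 3 and 0.566, 1.81, 0.254 and 0.115 CPM in NPYtet 1 to 4 (4.43 ± 0.76). Dlx3, a homeobox factor needed for shaft formation, was at 326, 234, 238, 104 and 74.8 CPM against 33.7 CPM in WT 3 and 26.5, 37.3, 21.5 and 26.7 CPM in NPYtet 1 to 4 (2.08 ± 0.43). Its relatives Dlx1 (3.65 ± 0.86) and Dlx4 (2.69 ± 0.64) were likewise free of overlap, at 1.42 to 11.1 CPM and 2.31 to 12.8 CPM in the hair-rich libraries, while Dlx2 overlapped (2.11 ± 0.76). Ovol1, an epidermal zinc finger factor, was called at 1.11 ± 0.44, but was 0.53 with labelled sex in the model and 0.54 without TMM scaling, and was not called in either. Elf5, an ETS factor best known from the mammary gland, was at 15.3 to 35.1 CPM against 3.02 to 10.4 CPM (2.77 ± 0.49).

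The BMP list held 3 called higher genes, 0 called lower and a median of 0.287 over its 22 tested members. Bambi, a pseudoreceptor that blocks BMP and activin signalling, was at 65.9, 50.2, 60.5, 29.9 and 45.6 CPM in WT 1, WT 2, WT 4, WT 5 and NPYtet 5. It was at 4.56 CPM in WT 3 and at 7.53, 8.18, 5.7 and 4.03 CPM in NPYtet 1 to 4 (3.17 ± 0.39). Smad6, an intracellular inhibitor of the pathway, was at 17.2 to 47.1 CPM against 7.48 to 11 CPM (2.02 ± 0.40). The ligand gene Bmp8a was at 1.6 to 4.88 CPM against 0.123 to 0.939 CPM (3.47 ± 0.68). A further 3 genes did not overlap but stayed under a difference of 1: the target Id3 (0.96 ± 0.34), the inhibitor Smad7 (0.82 ± 0.36) and the ligand Bmp7 (0.79 ± 0.37). Bmp4, the ligand made by dermal papilla and bulge surroundings, overlapped (-0.48 ± 0.55).

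In the FGF and EGF family, 2 of 27 tested genes were called, both higher, while the median was -0.357. Fgf5, the signal that ends hair growth, was at 7.0, 0.899, 3.34, 1.1 and 1.52 CPM in WT 1, WT 2, WT 4, WT 5 and NPYtet 5 and at 0.0984 to 0.259 CPM in the hair-poor libraries (3.34 ± 0.74). Fgf22 was at 9.06, 15.5, 6.27, 5.7 and 9.33 CPM against 2.12 to 3.2 CPM (1.96 ± 0.45). Fgf18, a bulge signal that holds stem cells at rest, overlapped, at 4.57 and 5.21 CPM in WT 1 and WT 4 and 11.4 to 22.1 CPM in the other 8 libraries.

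Of 28 tested Wnt ligands, receptors and targets, 1 was called higher and 1 lower, with a median of 0.199. Wnt11, whose promoter is shown above, was at 44.4, 69.7, 30.5, 31.2 and 71.9 CPM in WT 1, WT 2, WT 4, WT 5 and NPYtet 5 and at 10.1 to 21.0 CPM in the hair-poor libraries (1.76 ± 0.41). Wnt7a was low throughout, at 0 to 0.74 CPM against 0.922 to 1.87 CPM (-2.57 ± 0.81), and its difference was -1.42 without WT 2 and NPYtet 5. The receptor gene Fzd5 did not overlap, at 15.3 to 44.3 CPM against 11 to 14.7 CPM (0.84 ± 0.41). In the Notch list, the single called gene of 11 was Rbpj, the pathway's DNA-binding factor, at -1.11 ± 0.40, and it was not called without WT 2 and NPYtet 5 (-0.67), with labelled sex in the model (-0.71) or by library totals (-1.57, with overlap).

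**Figure D3:**
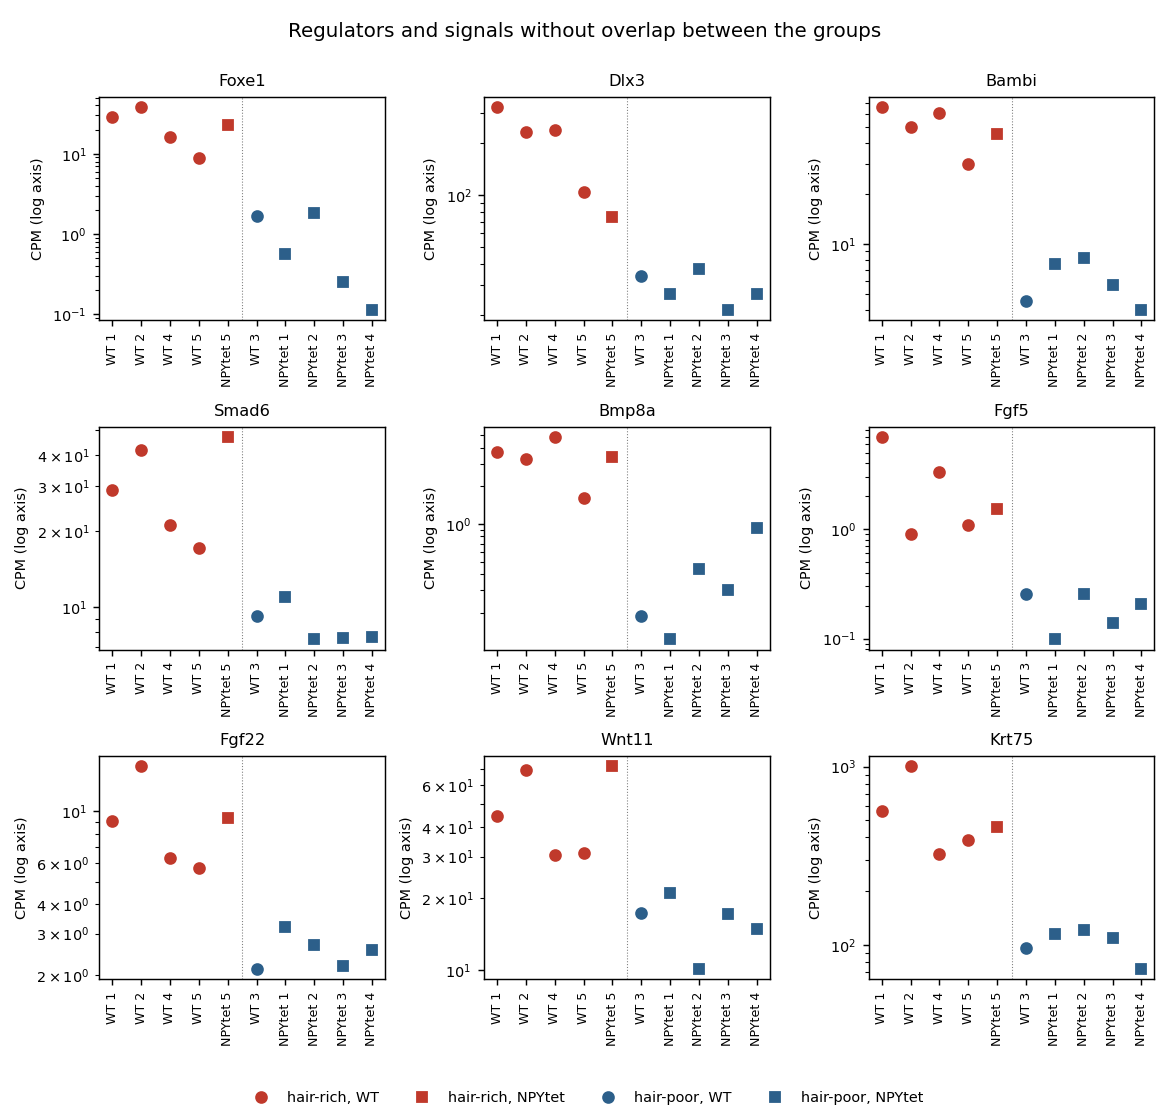
CPM (log axis) of 9 transcription factor, signalling and companion layer genes in each library; symbols as in the plot of growth-phase markers. In every panel the 5 hair-rich libraries (red) lie above the 5 hair-poor libraries (blue), and NPYtet 5 (red square) lies among or near the hair-rich WT libraries.

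Outside the shaft and inner root sheath, the companion layer gene Krt75 was at 566, 1002, 323, 387 and 456 CPM in WT 1, WT 2, WT 4, WT 5 and NPYtet 5 and at 72.9 to 120 CPM in the hair-poor libraries (2.35 ± 0.44). Slc7a8, an amino acid transporter, was at 31.0 to 109 CPM against 8.83 to 30.1 CPM (1.88 ± 0.49), with NPYtet 5 and NPYtet 2 at the touching ends; by library totals (1.37) its groups overlapped. These were the 2 called genes among 11 of the outer root sheath and companion layer, whose median was 2.15 but -0.095 with labelled sex in the model. In the bulge list 0 of 22 were called. Sox9 and Barx2, transcription factors of the outer root sheath and bulge, did not overlap and differed by 0.70 ± 0.32 and 0.65 ± 0.30, while the bulge markers Cd34 (-1.04 ± 0.42) and Krt15 (-0.07 ± 0.54) overlapped.

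Genes of activated keratinocytes had a list median of 2.06 over 25 tested genes, with 22 above 0, yet 1 of the 25 was called. The direction of that median depended on the model: it was -0.895 with labelled sex as a term, -0.696 with sex by Y-linked reads and 3.61 without WT 2 and NPYtet 5. Krt6b, a keratin of the companion layer and of wounded epidermis, was at 3653, 1591 and 384 CPM in WT 2, WT 5 and WT 4 but at 14.5 CPM in NPYtet 5 and 0.103 CPM in WT 1. Among hair-poor libraries it was at 2277 CPM in NPYtet 2 and at 9.03 CPM or less in the rest. Krt16 had the same order at its top, with 9138 CPM in WT 2, 4211 CPM in NPYtet 2 and 3330 CPM in WT 5. The groups therefore overlapped over most of their range in both genes. The exception in the list was S100a7a, a psoriasin-related S100 protein, at 62.9, 32.6, 41.6, 22.3 and 25.9 CPM against 0.787 to 6.84 CPM (3.76 ± 0.64).

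Other called genes belonged to lists whose median lay near or below 0. Car6, a secreted carbonic anhydrase placed in the glycolysis and hypoxia list, was at 83.4, 63.8, 24.5, 104 and 191 CPM against 3.15 to 7.57 CPM (4.51 ± 0.50), while the median of the 24 genes was -0.05. Slc4a1, the anion exchanger of the red cell membrane, was at 5.35 to 30.6 CPM against 0 to 1.34 CPM (4.90 ± 0.96), while the median of the 7 tested erythrocyte genes was 0.07. Stra6, the receptor for retinol-binding protein, was at 18.5 to 51.3 CPM against 1.75 to 12.5 CPM (1.79 ± 0.50), in a vitamin D, retinoid and steroid list with a median of 0.03, and its groups overlapped by library totals (1.29). Ephb1, an ephrin receptor, was at 6.68 to 23.8 CPM against 0.934 to 3.69 CPM (2.25 ± 0.50), in an axon cue list with a median of -0.38. The mitochondrially encoded list had a median of 1.61 over 11 genes, but -0.01 within WT and 0.01 without WT 2 and NPYtet 5.

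**Figure D4:**
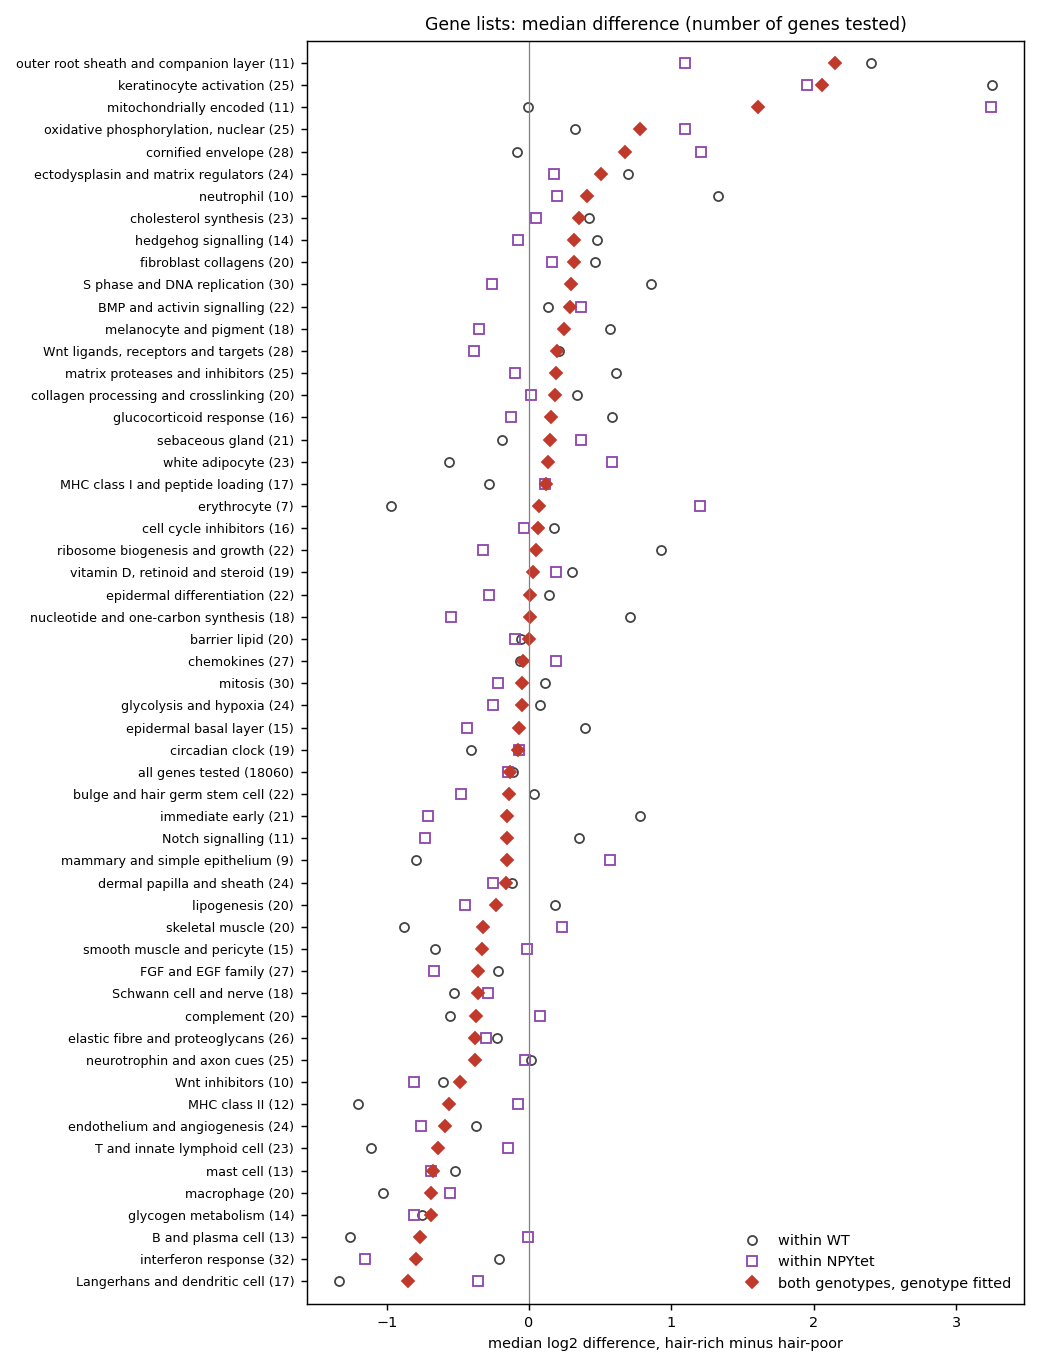
Median log2 difference (x axis, hair-rich minus hair-poor) of each gene list, with the number of genes tested in brackets. The defining list, the ribosomal RNA locus and the NPY system are left out. Diamonds use all libraries with genotype fitted. Circles are within WT, where WT 3 is the single hair-poor library. Squares are within NPYtet, where NPYtet 5 is the single hair-rich library. Outer root sheath and keratinocyte activation medians lie near 2 in this model (-0.095 and -0.895 with labelled sex added), and the Langerhans and dendritic cell, interferon, and B and plasma cell lists have the 3 lowest medians of this model (-0.267, -1.57 and 0.005 with labelled sex added). With sex by Y-linked reads added instead, the same 3 lists had medians of -0.628, -1.40 and -0.246. The neutrophil, chemokine and MHC class I lists lie above the median of all genes at -0.133 (-2.03, -0.359 and -0.455 with labelled sex added).

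Of the 158 genes called lower (0.875% of those tested), 11 were on any of the lists: C3, Cd163, Icos, Gbp2, Plau, Plat, Phka1, Rbpj, Wnt7a, Kcnmb1 and Arntl. C3, the central complement component, was at 434, 150, 151, 387 and 67.4 CPM in WT 1, WT 2, WT 4, WT 5 and NPYtet 5, and at 960.6 CPM in WT 3 and 615, 462, 771 and 1027 CPM in NPYtet 1 to 4 (-2.59 ± 0.52). The difference was -1.95 within WT and -1.54 without WT 2 and NPYtet 5, both of them against WT 3 alone. By library totals it was -3.10, but the groups then overlapped. Cd163, a haemoglobin scavenger receptor of tissue macrophages, was at 76.5, 14.4, 27.6, 16.8 and 23.4 CPM against 123 CPM in WT 3 and 109, 80.0, 87.3 and 118 CPM in NPYtet 1 to 4 (-1.97 ± 0.52), -1.60 without WT 2 and NPYtet 5, and -1.23 with labelled sex in the model. With sex by Y-linked reads the difference was -1.50. Cd163 too overlapped when scaled by library totals.

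Cd163 was the single called gene of 20 macrophage genes, of which 15 were below 0 (median -0.689, -0.932 without WT 2 and NPYtet 5, and -0.364 with labelled sex in the model). With sex by Y-linked reads, which counts NPYtet 1 as male, the macrophage median was -0.655. Mrc1, another macrophage receptor, did not overlap but differed by -0.65 ± 0.37. All 12 MHC class II genes, whose products present antigen, were below 0 (median -0.565), and 0 of 12 were free of overlap. Their median was -1.21 within WT but -0.077 within NPYtet, with 6 of 12 of the same sign in both. It was -1.07 without WT 2 and NPYtet 5. With labelled sex in the model it was -0.067, but with sex by Y-linked reads it was -0.544. Of 23 T and innate lymphoid genes 21 were below 0, and 13 of 23 had the same sign in both genotypes. Their median was -0.642, which was -1.11 within WT and -0.145 within NPYtet. It was -0.265 with labelled sex in the model and -0.353 with sex by Y-linked reads. Icos, a co-stimulatory receptor, was called at -1.25 ± 0.53, falling short of the call with labelled sex in the model (-0.78). With sex by Y-linked reads its difference was -1.13. Over all tested genes, 43.3% were above 0.

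The interferon list moved with NPYtet 5 and with the term for sex. Of 32 tested genes 30 were below 0, with a median of -0.795, but the median was -0.212 within WT, -1.15 within NPYtet, -1.57 with labelled sex in the model and -0.145 without WT 2 and NPYtet 5. Oasl2, an antiviral gene, was at 2.45 CPM in NPYtet 5 against 11.4 to 73.7 CPM elsewhere. Gbp2, a guanylate-binding protein and the called member, was at 28.0, 8.46, 18.7, 19.7 and 16.3 CPM against 32.9 to 53 CPM (-1.31 ± 0.39), and -1.23 without those libraries, but -0.99 with labelled sex in the model. With sex by Y-linked reads the Gbp2 difference was -1.035 and the median of the interferon list -1.40. Glycogen genes were below 0 in 13 of 14 cases, with a median of -0.691 and of -0.734 without WT 2 and NPYtet 5. Phka1, a regulatory subunit of phosphorylase kinase, was called lower (-1.44 ± 0.42, and -0.76 without those libraries). Pgm2, a phosphoglucomutase, was called higher (1.09 ± 0.35), but was not called with labelled sex (0.91) or by library totals (0.60). With sex by Y-linked reads the Pgm2 difference was 1.01.

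All of the 10 lowest named genes had WT 2 or NPYtet 5 as their lowest library, as had 149 of the 158 called lower genes and 9611 of the 18060 tested. By the rule of no overlap, a called lower gene has its lowest library among the hair-rich ones. The share over all tested genes has no such limit, so these shares are not like for like. Pon1, a serum and tissue paraoxonase, was at 0.62, 0.0529, 0.331, 1.1 and 0.331 CPM in WT 1, WT 2, WT 4, WT 5 and NPYtet 5. In the hair-poor libraries Pon1 was at 1.18 to 11.9 CPM (-3.02 ± 0.90). The difference was -2.05 without WT 2 and NPYtet 5, -1.88 with labelled sex and -3.32 with sex by Y-linked reads. Havcr2, an inhibitory immune receptor, was at 2.92, 0.582, 3.34, 2.08 and 0.662 CPM against 3.5 to 5.63 CPM (-1.97 ± 0.60, and -0.96 without them). Ptgdr, a prostaglandin D2 receptor gene, differed by -2.27 ± 0.54 and by -0.99 without them, and Naip2 and Cass4 by -2.03 ± 0.56 and -2.03 ± 0.77. The remaining 4 were Tcf24, Exd1, Trim34a and Ripply3, all under 11 CPM in every library; Trim34a and Ripply3 were not called without WT 2 and NPYtet 5, nor Exd1 and Ripply3 by library totals. Tcf24 and Exd1 had 0 reads in NPYtet 5, which allows up to 3. Plau, which encodes urokinase, was called lower at 44.7 to 58.6 CPM in the hair-rich WT libraries, 17.3 CPM in NPYtet 5 and 74.0 to 116 CPM in the hair-poor libraries, but differed by -0.71 without WT 2 and NPYtet 5. Plat, the tissue plasminogen activator gene (-1.33 ± 0.37), Kcnmb1, a potassium channel subunit of smooth muscle (-1.21 ± 0.67), and Arntl, a core clock activator (-1.32 ± 0.40), were not called without those libraries either, at -0.70, -0.90 and -0.51. Called lower genes had a median exon length of 4462 bp, against 2614 bp for the called higher genes outside the list and clusters and 3792 bp for all tested genes. The part of the low long-gene reads in WT 2 and NPYtet 5 in these differences was not tested.

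**Figure D5:**
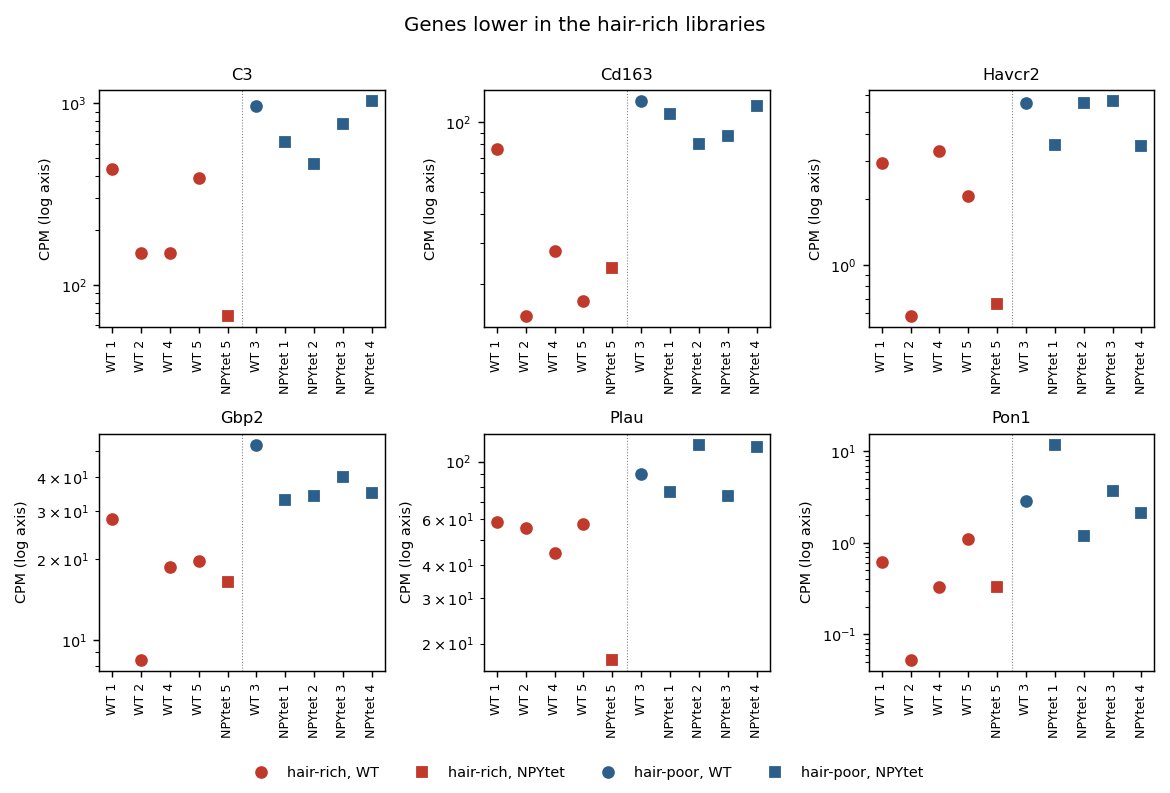
CPM (log axis) of 6 genes called lower in each library; symbols as in the plot of growth-phase markers. The red hair-rich points lie below the blue hair-poor points in each panel, with WT 2 or NPYtet 5 the lowest point in every panel.

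Genotype, which comes from the labels and did not set the groups, was tested with the hair grouping in the same model. By edgeR's quasi-likelihood test with Benjamini-Hochberg adjustment, 1 of 18060 genes (0.00554%) passed an adjusted p of 0.05, and 550 had an unadjusted p under 0.05, 484 of them higher in NPYtet. The gene was Npy, the neuropeptide whose locus carries the allele, with a log2 fold change of 9.01 ± 0.54 (adjusted p = 2.74e-05) and all 5 NPYtet values above the highest WT value. Npy was at 96.2, 245, 166, 130 and 485 CPM in NPYtet 1 to 5. In WT 1, WT 2, WT 4 and WT 5 it was at 1.39, 2.86, 1.32 and 2.17 CPM, from 54 to 80 reads, while in the hair-poor WT 3 it was at 0.094 CPM, from 4 reads. Npy was thus highest in NPYtet 5 and lowest in WT 3. The next genes by p, Rnase12, Gm10074, Spink6 and Ctla2a, had an adjusted p of 0.935 in edgeR's test. The 550 genes of unadjusted p under 0.05 were a smaller share of the 18060 than 0.05, the average share without any difference. Ctla2a, a cathepsin inhibitor gene, was at 524 CPM in NPYtet 5 and at 16.8 to 56.8 CPM in the other 9 libraries, and Rnase12 (3.65 ± 0.55) and Spink6 (5.85 ± 0.72) were also called higher in the hair-rich libraries, though not Rnase12 by library totals. Npy itself overlapped between the hair groups. With 1 library of the minority genotype in each hair group, a genotype difference and a difference of NPYtet 5 or WT 3 from the rest cannot be told apart.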

How the data were processed

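RNA-seq was made from whole skin of 10 mice, 5 WT and 5 NPYtet, grouped by the share of reads on hair genes. The labels do not say outright that each library is a separate animal, so p-values measure the spread between these libraries. Per the submitters' processing notes, reads were trimmed with Trimmomatic 0.36, aligned with STAR 2.5.2 to mm10 and analysed with DESeq2 1.30.1; the annotation release was not stated there. The authors deposited unnormalised read counts per gene in each library (49671 gene identifiers, 49326 named through GENCODE vM21; identifiers without a name held up to 0.0744% of reads). The column that ignores strand was used here, so reads of a gene and an overlapping antisense gene cannot be told apart.

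Genes with at least 10 reads in enough libraries (filterByExpr) were kept, scaled by TMM and fitted with edgeR 4.0.16 (R 4.3.3) on genotype plus hair grouping; CPM values use TMM-scaled library sizes. Standard errors are from the fit, and no p-value is given for the hair grouping. Within-genotype differences are differences of mean log2 CPM with a prior count of 2. Alternatives used DESeq2 1.42.0, limma 3.58.1, other scalings, filters, model terms and left-out libraries. The fit was tested on simulated data. The groups, the gene lists (58, with 1232 names) and the naming rule were chosen with earlier results of these data known. The rule names the 10 highest and 10 lowest differences among called genes of at least 1 CPM, with the same sign in both genotypes, a full symbol and outside hair keratin genes, plus list members, preferably those free of overlap. Promoter letters came from RefSeq windows of GRCm38.p6.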

Additional observations from a re-analysis of the deposited data

Results flagged for a closer look

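In groups of 5 libraries, a library was singled out when its gap to the nearest other one exceeded 0.71 of the group's range (log2 CPM for genes); chance gives about 1 such group in 20. Of 164 groups, 20 had one, with NPYtet 5 singled out in 9 and NPYtet 2 in 7.

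NPYtet 5 was the highest hair-rich library for Ctla2a (524 CPM), Rnase12 (17.9 CPM), Gm10074 (5.89 CPM), Spink6 (3.84 CPM) and the mitochondrial share of reads (9.26%). It was the lowest for Plau (17.3 CPM), Ptgdr (0.265 CPM), Tcf24 (0 CPM) and Exd1 (0 CPM). NPYtet 2 was the highest hair-poor library for the hair list (0.279% of reads), Krt16 (4211 CPM), Pgm2 (31.5 CPM), Elf5 (10.4 CPM), Sct (0.414 CPM) and Kcnk16 (0.318 CPM), and the lowest for the bulge keratin gene Krt15 (1072 CPM). WT 2 was the lowest hair-rich library for Kcnmb1 (0.0529 CPM), WT 5 was the lowest hair-rich library for Vsig8 (42.4 CPM), NPYtet 4 the lowest hair-poor library for Sox9 (68.3 CPM), and WT 3 the lowest WT library for Npy (0.094 CPM).

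For Tgm3 the hair-rich libraries lay above the hair-poor one within WT (log2 difference 1.57) and below within NPYtet (-1.51). Krt15 went the other way, at -0.65 within WT and 0.55 within NPYtet. Neither difference between genotypes was tested.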

How the results depend on the processing

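Counts of called genes (higher, lower or by genotype) moved by over 1.5 times in several settings. These were library totals, no filter on low counts, the replicate block, and leaving out WT 1, WT 3, WT 5 or NPYtet 2. Lower calls were 380 when scaled by library totals and 248 with no filter on low counts (442 higher). Over the 10 fits that left out 1 library each, higher calls ranged from 399 to 675 and lower calls from 158 to 736, with NPYtet 2 left out at the upper end of both. Genes called by genotype ranged from 1 to 160 over those fits, the 160 without WT 3, where NPYtet 5 alone separates genotype from hair grouping; the count was 2 with no filter. The replicate numbers do not pair the libraries (correlations of same-numbered deviations of -0.256, 0.304, 0.644, 0.093 and 0.076), and with the replicate block 6 genes were called by genotype, 401 higher and 188 lower.

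In the other settings (DESeq2, upper-quartile scaling, limma voom with quality weights, a stricter filter, labelled sex, sex by Y-linked reads, no genotype term, and both libraries WT 2 and NPYtet 5 left out) higher calls were 338 to 469 and lower calls 108 to 216. The term for sex by Y-linked reads was added after seeing the data. No named called gene changed sign in any of these fits. Where libraries were left out, the rule of no overlap nearly fixed this in advance. The Npy genotype difference ranged from 7.18 with no term for hair grouping to 10.71 without NPYtet 5. The 10.71 sets NPYtet 1 to 4 against WT 3 alone, which had 4 Npy reads. In fits that kept NPYtet 5, the adjusted p of Npy in edgeR, DESeq2 and limma was at most 0.0075. The groups come from the same reads as the differences, 1 library per hair group carries the minority genotype, and hair grouping, sex and read quality of WT 2 and NPYtet 5 overlap.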
